A study of Mus musculus with 27 samples.

Results

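The genes described here are 37 genes of DNA replication and mitosis, of the 55487 genes in the count table. They were chosen by name, as 14 genes of S phase (Pcna, Mcm2, Mcm3, Mcm4, Mcm5, Mcm6, Mcm7, Ccne1, Ccne2, Tyms, Rrm1, Rrm2, Tk1 and Hells) and 23 genes of mitosis (Mki67, Top2a, Ccna2, Ccnb1, Ccnb2, Cdk1, Cdc20, Plk1, Aurka, Aurkb, Birc5, Bub1, Bub1b, Cenpa, Cenpe, Cenpf, Ube2c, Nusap1, Tpx2, Prc1, Cdca8, Smc2 and Smc4). Of the 37 genes, 36 were tested, being among the 16330 genes that reached over 10 counts in 3 or more of the 27 libraries. The remaining one, Rrm2, which encodes a subunit of ribonucleotide reductase, had 0 to 8 counts in every library and was at 0 in 15 of the 27.

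RNA was measured at embryonic day 14 in the optic stalk, the neural tube between the eye cup and the brain whose cells become the astrocytes of the optic nerve. From each embryo the dorsal and ventral stalk and the bundle of retinal axons were cut out of stained cryosections by laser capture, chosen by their anatomy, and each piece gave 1 library. The 4 control embryos were littermates that carried no Dct-Cre. The 5 mutant embryos (Smarcc1-DCT-cKO) carried loxP sites in both copies of Smarcc1 (Baf155), which encodes a core protein of SWI/SNF chromatin remodellers, together with Dct-Cre, and the study's lines also include the Z/EG reporter of Cre activity. Dct-Cre is driven by a pigment gene, acts in pigment epithelium as well as in the stalk, and recombines the dorsal stalk before the ventral stalk. The study chose this stage in part because the stalk as a whole is then recombined, and describes the transgene as only partly active in the optic disc. Batch A held 1 control and 3 mutant embryos and batch B held 3 control and 2 mutant embryos, so every group spans both batches.

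A cell that is about to divide copies its DNA in S phase and separates the copies in mitosis. The MCM helicase unwinds the DNA, the sliding clamp PCNA holds the polymerases on it, and the enzymes of nucleotide synthesis supply the building blocks. Cyclin-dependent kinase 1 with cyclins A and B then drives the cell into mitosis, where condensins, centromere proteins, Aurora and Polo kinases and the anaphase-promoting complex fold, attach and part the chromosomes. The S-phase genes are known targets of E2F factors and the mitosis genes of the MuvB complexes with B-MYB and FOXM1, so that RNA of both classes is high in cycling cells and low in resting cells. In whole tissue pieces like these, fewer cycling cells and less RNA per cycling cell cannot be told apart.

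Library totals lay between 10.9 and 34.0 M counts (M, mega), so that 1 read equalled 0.0294 to 0.0917 CPM (counts per M counts of the library). The libraries were amplified by PCR and carry no molecular identifiers, and the depth given covers counting error only. The targeted gene, Smarcc1, stood at 50.1 to 289 CPM in the 12 control libraries and at 1.86 to 107 CPM in the 15 mutant libraries. Dorsal mutants 1 and 2, at 94.9 and 107 CPM, lay within the range of the dorsal controls. Reads over the whole gene do not separate intact from recombined transcripts. Mitochondrial genes took 7.49 to 15.4% of the counts in the axon pieces and 3.72 to 7.63% in the stalk pieces. All 8 markers of the stalk's astrocyte progenitors were above 0 on average in every group. Of 10 neurone markers, Nefm was the highest in the axon pieces, with means of 957 CPM in controls and 1290 CPM in mutants. The list as a whole did not mark the axon pieces. In dorsal controls 5 of the 10 were higher on average than in axon controls and 4 lower. Tubb3, for 1, had means of 100 CPM in dorsal and 13.5 CPM in axon controls. Pou4f2, a gene of retinal ganglion cells in that list, was at 0 in every group but the ventral mutants. In 0 pairs, libraries held identical counts.

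RefSeq promoter windows, from 250 bases before to 50 bases after the start, were at hand for 31 of the 37 genes and are given on the build GRCm38.p6. Mcm7 and Prc1 have 2 windows each, which makes 13 windows for 12 S-phase genes and 20 for 19 mitosis genes. Mcm4, Ccne2, Ccna2, Aurkb, Tpx2 and Smc4 have none in the table used. To show how the promoters of the 2 classes differ in their letters, the 120 bases before the start are printed for 3 genes of each class, 5′ to 3′ on the strand of the gene, with motif letters in capitals. The 3 motifs searched on both strands were E2F (TTTCCCGC, TTTCGCGC, TTTGCCGC or TTTGGCGC), the cell cycle homology region or CHR (TTTGAA or TTCGAA), which is the site of MuvB complexes, and CCAAT, the site of NF-Y. ATTGG is CCAAT and TTCAAA is TTTGAA on the other strand. The S-phase genes come first, with Hells at chr19:38930870-38930989 on the plus strand, Mcm6 at chr1:128359706-128359825 and Pcna at chr2:132253181-132253300, both on the minus strand. The mitosis genes follow, with Cdk1 at chr10:69352913-69353032, Mki67 at chr7:135716380-135716499 and Top2a at chr11:99024190-99024309, all on the minus strand.
Hells: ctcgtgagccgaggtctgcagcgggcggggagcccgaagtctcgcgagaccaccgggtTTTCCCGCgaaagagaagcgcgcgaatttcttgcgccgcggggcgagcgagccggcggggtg
Mcm6: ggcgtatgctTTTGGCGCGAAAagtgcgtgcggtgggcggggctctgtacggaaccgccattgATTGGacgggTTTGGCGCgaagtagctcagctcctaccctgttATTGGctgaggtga
Pcna: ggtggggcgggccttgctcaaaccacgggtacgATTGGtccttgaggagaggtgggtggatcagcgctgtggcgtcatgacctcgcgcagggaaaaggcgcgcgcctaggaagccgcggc
Cdk1: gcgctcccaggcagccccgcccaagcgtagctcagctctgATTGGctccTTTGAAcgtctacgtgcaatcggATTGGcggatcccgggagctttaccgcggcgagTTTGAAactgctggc
Mki67: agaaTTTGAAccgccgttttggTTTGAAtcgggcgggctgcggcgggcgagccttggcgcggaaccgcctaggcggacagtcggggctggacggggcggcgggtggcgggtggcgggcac
Top2a: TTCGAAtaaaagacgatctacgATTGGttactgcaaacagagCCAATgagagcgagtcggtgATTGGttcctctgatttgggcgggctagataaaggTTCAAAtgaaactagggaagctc

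In Mcm6, which encodes a subunit of the MCM helicase, the run TTTGGCGCGAAA holds 2 E2F matches that overlap on opposite strands, and another E2F match lies between the 2 CCAAT boxes. Cdk1, the kinase that starts mitosis, and Top2a, the topoisomerase that untangles sister chromatids, hold 2 CHR matches each beside their CCAAT boxes. An E2F match was found in 5 of the 13 S-phase windows (38.5%), in Hells, Mcm3, Mcm5, Mcm6 and Mcm7, and in 1 of the 20 mitosis windows (5%), that of Cdk1. Over all 32851 windows of the same length the share was 2.26%. A CHR match was found in 16 of the 20 mitosis windows (80%) and in 2 of the 13 S-phase windows (15.4%), against 19.2% of all windows. CCAAT was in 18 of the 20 mitosis windows (90%), in 9 of the 13 S-phase windows (69.2%) and in 37.4% of all windows. All 16 mitosis windows with a CHR also held CCAAT, a combination in 7.52% of all windows. These matches describe letters and were not tested as sites.

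**Figure D1:**
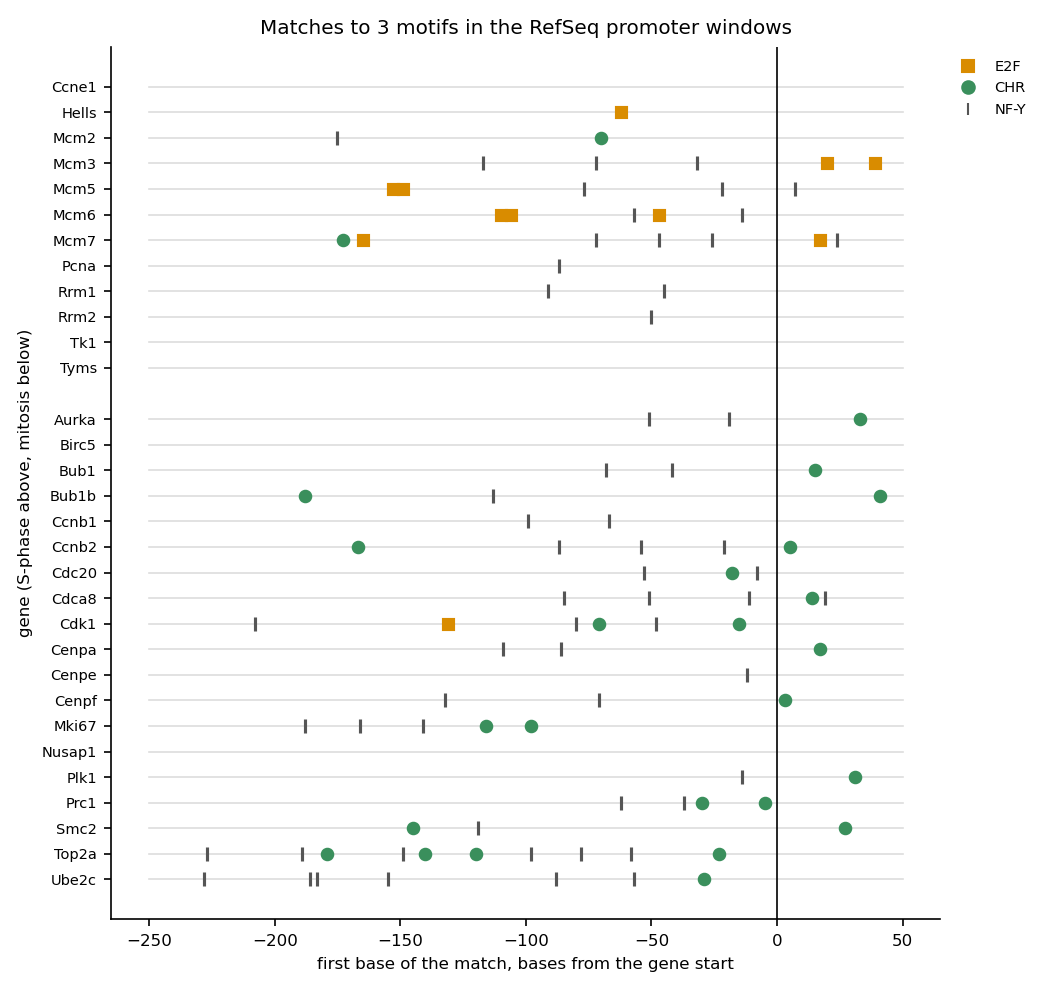
Positions of the motif matches in the RefSeq promoter windows of 31 genes (grey lines, S-phase genes above, mitosis genes below), in bases from the start; squares are E2F, circles CHR and bars the NF-Y site CCAAT, and both windows of Mcm7 and of Prc1 are drawn on the same line. E2F matches fall in 5 S-phase genes and in Cdk1, and CHR matches in 15 mitosis genes, Mcm2 and Mcm7.

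Transcript levels differed widely among the genes. As mean CPM per kb of exon over the 27 libraries, the highest were Ccnb2 (cyclin B2), at 257 ± 94.0 (SD, n = 27), Ube2c (203 ± 73.0) and Cdc20 (196 ± 83.6), the latter both partners of the anaphase-promoting complex. Pcna followed at 168 ± 61.9 CPM per kb and Birc5 (survivin) at 144 ± 47.3 CPM per kb. Neighbours among these 5, and neighbours from Cdk1 (92.7 ± 38.8 CPM per kb) down to Ccne2, differed by less than their SDs. The lowest of the 36 genes tested were Bub1, a kinase of the spindle checkpoint, at 15.5 ± 10.3 CPM per kb, and Ccne2 (cyclin E2), at 15.3 ± 12.8 CPM per kb. Rrm2 lay far below, at 0.0221 ± 0.0412 CPM per kb. Whether so few counts reflect the level of its RNA was not tested. Rrm2 is kept among the 14 genes of the mean S-phase levels given below, and lowers them and their difference from the mitosis levels. The spread over libraries, as the SD in percent of the mean, was 31.2% for Top2a and 83.3% for Ccne2, the steadiest and the least steady of the 36.

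Single genes were near 0 in single libraries. Of the 972 values of the 36 genes, 9 were under 2 CPM, from 7 genes, and 3 of these were exactly 0. Mcm3 stood at 0.8 CPM in ventral control 3, against a group median of 224 CPM, and Ccna2 (cyclin A2) at 0.334 CPM in axons control 1, against 196 CPM. Ccne1 was low in ventral control 3 and at 0 in dorsal control 2, and Bub1 was low in axons control 1 and at 0 in axons mutant 1. Ccne2 was at 0 in axons mutant 1, Bub1b at 0.642 CPM in dorsal mutant 1 and Prc1 at 0.68 CPM in axons mutant 3. Exonic bases were shared with another gene in 11 of the 37 genes, from 1.35% in Top2a to 17.4% in Ccne2 and 22.8% in Ube2c, and Pcna, Tyms, Ccnb1 and Ccnb2 have named pseudogenes, so their counts are less certain.

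Across the 6 groups the S-phase genes lay lowest in the dorsal controls. The mean log2(CPM + 1) over the 14 S-phase genes was 6.14 ± 0.89 in dorsal controls (SD, n = 4) and 7.07 ± 0.32 in dorsal mutants (SD, n = 5). It was 6.68 ± 1.00 in ventral controls, 7.08 ± 0.19 in ventral mutants, 7.06 ± 0.30 in axon controls and 6.51 ± 0.25 in axon mutants. Over the 23 mitosis genes the same measure was 7.23 ± 0.84 in dorsal controls and 7.73 ± 0.33 in dorsal mutants. The ventral pieces had the highest mitosis level, 7.86 ± 0.18 in controls and 8.21 ± 0.23 in mutants, and the axon pieces stood at 7.54 ± 0.52 and 7.48 ± 0.39. Within each region the libraries of the 2 genotypes overlapped on both measures. Among the 13 S-phase genes tested, 9 had their lowest group mean CPM in the dorsal controls. Among the 23 mitosis genes, 12 had their lowest group mean in the dorsal controls and 15 their highest in the ventral mutants.

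Dorsal controls 1 to 4 had S-phase levels of 6.90, 4.97, 5.93 and 6.76 and mitosis levels of 8.01, 6.73, 6.30 and 7.86, as mean log2(CPM + 1). Controls 2 and 3 were thus the low ones on both measures. The dorsal mutants spanned 6.56 to 7.42 for S phase and 7.33 to 8.08 for mitosis, and overlapped controls 1 and 4. Ventral control 3 had an S-phase level of 5.27 beside a mitosis level of 7.82. Its S-phase level minus its mitosis level, -2.55, was the lowest of all libraries. By group, S-phase minus mitosis level was -1.09 ± 0.57 and -0.65 ± 0.30 in dorsal controls and mutants, -1.17 ± 0.93 and -1.13 ± 0.29 in ventral controls and mutants, and -0.48 ± 0.52 and -0.97 ± 0.32 in axon controls and mutants. Within each region the 2 genotypes overlapped on this difference.

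**Figure D2:**
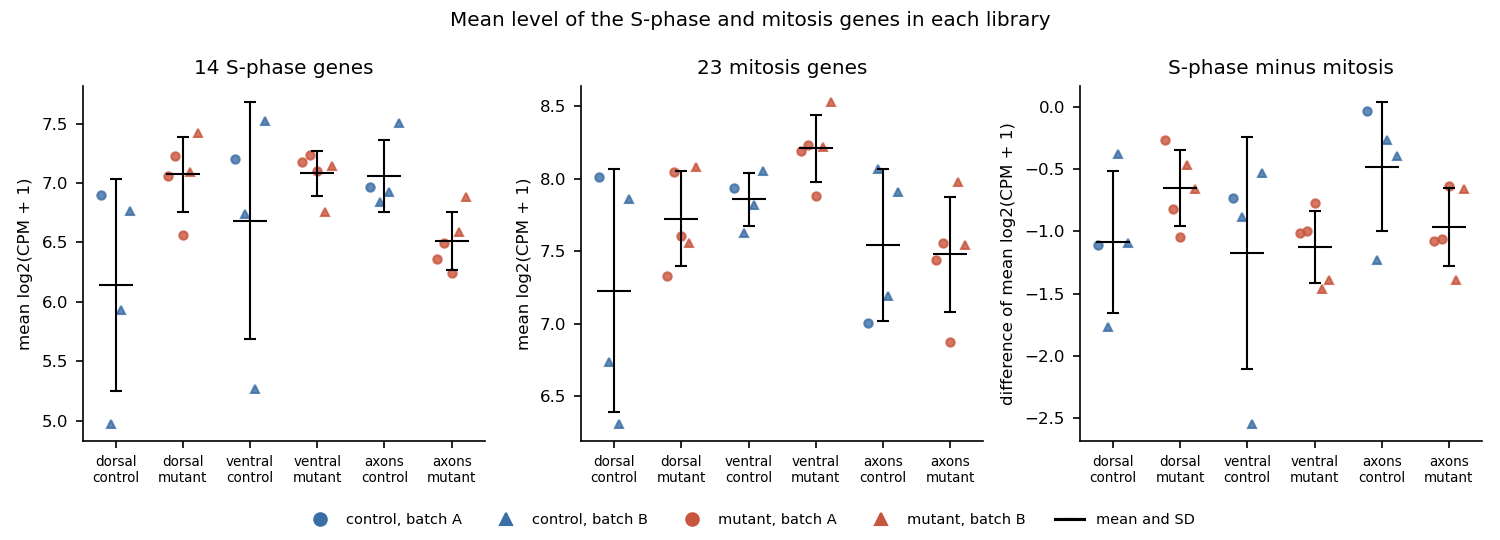
Mean log2(CPM + 1) of the 14 S-phase genes, of the 23 mitosis genes and their difference, 1 point per library in the 6 groups, blue for control, red for mutant, circles for batch A and triangles for batch B, with the group mean and SD. Dorsal controls 2 and 3 and ventral control 3 lie low in S phase, at 4.97, 5.93 and 5.27, and the axon mutants span 6.24 to 6.88.

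The comparison of genotypes within the dorsal stalk asked whether loss of Smarcc1 goes with a change of these genes. Both classes were fitted higher in mutants than in controls, 12 of 13 S-phase genes with a median log2 fold change of 0.79 and 21 of 23 mitosis genes with a median of 0.37. Over all 16145 genes tested there, 48.6% were fitted higher and the median was -0.042. None of these differences passed the test: edgeR with Benjamini-Hochberg adjustment called 0 of the 36 genes, in a comparison where it called 0.0124% of all genes. At an unadjusted p under 0.05, edgeR gave 2 S-phase and 2 mitosis genes, all higher, where 2.68% of all genes were higher at that level. DESeq2 called 1 of the 36 genes, Birc5, and limma voom called 0. Of all 16145 genes DESeq2 called 532 and limma voom 52.

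Among the replication genes, Pcna stood at 268, 146, 171 and 289 CPM in the dorsal controls and at 477, 499, 210.5, 356 and 646 CPM in the dorsal mutants. Mutant 3 lay among the controls and the other 4 above them. The fitted log2 fold change was 1.03 (SE 0.36, adjusted p = 0.918 by edgeR). Mcm3, a helicase subunit, stood at 128, 8.56, 59.8 and 121 CPM in controls and at 256, 199, 323, 229 and 229 CPM in mutants, with no overlap. Its log2 fold change was 1.54 (SE 0.60, adjusted p = 0.918 by edgeR). Among all genes tested, 1.31% were likewise higher in every dorsal mutant than in every dorsal control. The subunits Mcm6 (log2 fold change 0.92, SE 0.42) and Mcm2 (0.79, SE 0.43) overlapped between genotypes, with Mcm2 at 44.1 to 199.6 CPM in controls and 148 to 283 CPM in mutants. Of the 6 MCM subunits 5 were fitted higher, with a median of 0.79, and Mcm4 was fitted lower, at -0.22. The nucleotide enzymes Tyms, Rrm1 and Tk1 (0.45 to 0.82) and both E cyclins, which start S phase (0.65 and 1.19), were fitted higher, and Hells, a chromatin remodeller of replicating cells, stood at 0.091.

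Among the mitosis genes, Birc5, a subunit of the chromosomal passenger complex that corrects chromosome attachment, had the smallest p. It stood at 373, 261, 194 and 369 CPM in the dorsal controls and at 549, 608, 591, 475 and 617 CPM in the dorsal mutants. The groups did not overlap. The log2 fold change was 0.88 (SE 0.24, adjusted p = 0.865 by edgeR). DESeq2 gave 0.84 with an adjusted p of 0.0288, the lowest of 21 alternative settings, whose adjusted p-values reached 1. The partners of Birc5 in that complex, Aurkb and Cdca8, were fitted at 0.39 and 1.27 with SEs of 0.42 and 0.70. Mki67, the proliferation antigen on mitotic chromosomes, stood at 130.0, 175, 241 and 405 CPM in controls and at 392, 416, 330.2, 301 and 472 CPM in mutants. Control 4 lay among the mutants, and the log2 fold change was 0.90 (SE 0.36, adjusted p = 0.918 by edgeR), or 0.52 without control 1 and 1.18 without mutant 4.

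The other mitosis genes lay closer to 0. Cdk1 stood at 451, 167, 99.6 and 329.9 CPM in dorsal controls and at 314, 428, 449, 387 and 488 CPM in dorsal mutants, with a log2 fold change of 0.63 (SE 0.38). Controls 2 and 3 were again the low libraries, and the value was 1.17 without control 1, 0.40 without control 3 and 0.41 without mutant 5. Top2a was fitted at 0.43 (SE 0.26) and Ccnb1 (cyclin B1) at 0.32 (SE 0.46). The value of Ccnb1 was 1.15 without control 1, 0.21 without control 2, 0.013 without control 3 and 0.043 without mutant 4. The condensin subunits Smc2 and Smc4, which compact chromosomes, were fitted at 0.55 and 0.40, and the centromere proteins Cenpa, Cenpe and Cenpf at 0.37, 0.54 and 0.21. The checkpoint kinases Bub1 and Bub1b had a median of 0.096 and the spindle proteins Nusap1, Tpx2 and Prc1 a median of 0.060. Ccna2, Ccnb2, Cdc20, Ube2c, Plk1 and Aurka, which act at the entry into or exit from mitosis, were fitted between 0.082 and 0.49.

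The dorsal pieces also differed in markers of other cell types. All 12 mesenchyme markers were lower in dorsal mutants, with summed levels of 1163 to 11688 CPM in controls and 55.6 to 395 CPM in mutants, and none was at 0 in either group. Controls 2 and 3, the low libraries for both classes of genes, had the highest mean log2(CPM + 1) of these markers, 7.27 and 8.72, against 4.92 and 6.29 in controls 1 and 4 and 1.12 to 3.78 in the mutants. Of 10 melanin and pigment epithelium markers 9 were higher in dorsal mutants (3256 to 12687 CPM summed, against 39.5 to 5006 CPM), and Rpe65, which defines mature pigment epithelium, was at 0 in both groups. All 8 markers of astrocyte progenitors were lower (402 to 795 CPM summed, against 1032 to 1475 CPM). All 9 proneural markers were higher (114 to 922 CPM summed, against 0.808 to 37.6 CPM), 6 of which were at 0 in the controls. Of 7 retinal progenitor markers 6 were higher (425 to 1069 CPM summed, against 165 to 391 CPM). Endothelial markers were lower in 6 of 8, erythroid markers in 7 of 8 and neurone markers in 7 of 10, with overlapping sums. The part of these cell types in the levels of the replication and mitosis genes was not tested. Without dorsal controls 2 and 3, a setting chosen after seeing the data, the S-phase median was 0.28 (11 of 13 higher) and the mitosis median -0.034 (10 of 23 higher), beside a median over all genes of 0.063.

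**Figure D3:**
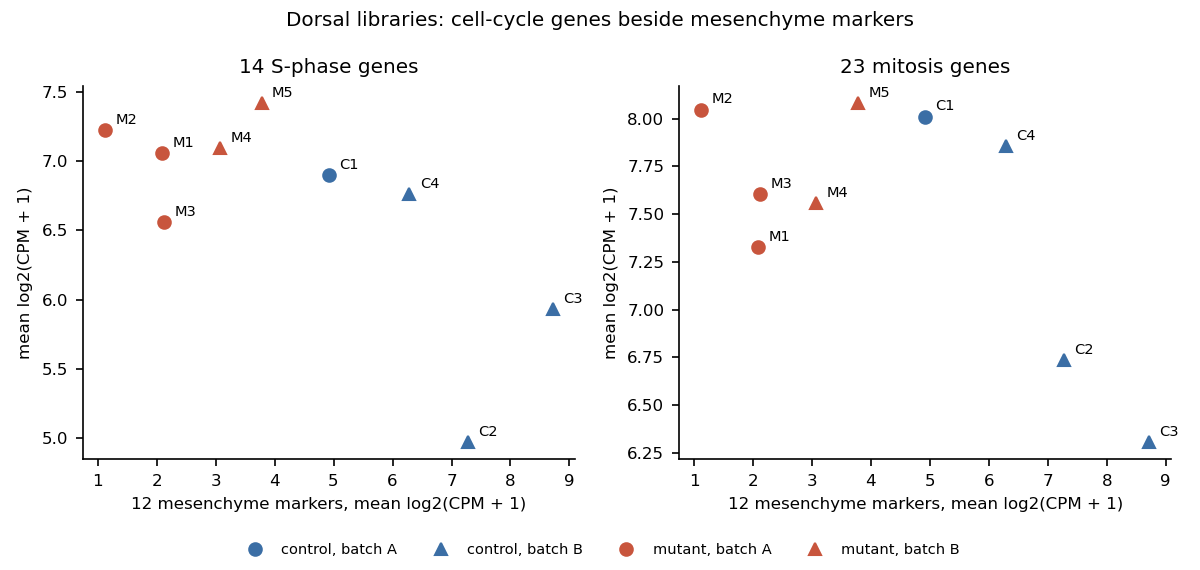
The 9 dorsal libraries (C, controls 1 to 4, blue; M, mutants 1 to 5, red; circles batch A, triangles batch B), with the mean log2(CPM + 1) of 12 mesenchyme markers on the x axis and that of the 14 S-phase or 23 mitosis genes on the y axis. Controls 2 and 3 have the highest marker levels, 7.27 and 8.72, and the lowest levels of both gene classes.

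Within batch A, with 1 control and 3 mutants, the dorsal S-phase median was 0.28 (9 of 13 higher) and the mitosis median -0.23 (8 of 23 higher), where the median over all genes was 0.42. Within batch B, with 3 controls and 2 mutants, all 13 S-phase and all 23 mitosis genes were fitted higher, with medians of 1.15 and 0.82 and a median over all genes of -0.19. The mitosis genes thus took opposite directions in the 2 batches. Without dorsal mutants 1 and 2, whose Smarcc1 level lay within the control range, the medians were 0.78 and 0.47. The mitosis median of all 9 libraries, 0.37, became 0.82 without control 1, 0.21 without control 2, 0.24 without control 3 and 0.21 without mutant 5.

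Other genes of the same pathways, which are no members of the list, were counted in the same way. Of 35 further replication genes 31 were fitted higher in dorsal mutants, with a median of 0.82, and of 39 further mitosis genes 32, with a median of 0.52. Over all genes 48.6% were fitted higher there. Calls by edgeR on these further genes numbered 0. Lig1, the ligase that joins Okazaki fragments, stood at 114, 118, 163 and 133 CPM in controls and at 226, 199, 268, 186 and 305 CPM in mutants. It did not overlap between genotypes, and its log2 fold change was 0.92 (SE 0.32, adjusted p = 0.918 by edgeR). E2f2, a factor that drives S-phase genes, was at 0 in all 4 dorsal controls and at 0.483 to 40.7 CPM in the mutants. Its log2 fold change was 11.3 (SE 3.05, adjusted p = 0.913 by edgeR). E2f2 was also at 0 in ventral control 2, ventral mutant 3, axons control 1 and axon mutants 1, 2 and 4. In ventral control 3 it stood at 41.4 CPM. Over all genes, 1.31% were higher without overlap in the dorsal mutants.

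In the ventral stalk 19 of 23 mitosis genes were fitted higher in mutants, with a median log2 fold change of 0.40, and 6 of 13 S-phase genes, with a median of -0.053. Over all 16139 genes tested 46.8% were fitted higher and the median was -0.083. The edgeR test called 0 of the 36 genes, and 0% of all genes. At an unadjusted p under 0.05 edgeR gave 6 mitosis genes and Hells, all higher, where 1.28% of all genes were higher at that level. DESeq2 and limma voom called 0 of the 36 genes, and 342 and 5 of all genes. Whether the S-phase and mitosis genes differed from each other in this response was not tested.

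Cdk1 had the smallest p. Ventral controls 1 to 4 had 346, 421, 142 and 523 CPM, and ventral mutants 1 to 5 had 484, 670.3, 569, 816 and 769 CPM. Only mutant 1 lay within the control range, and the log2 fold change was 0.97 (SE 0.32, adjusted p = 0.999 by edgeR). Its cyclin partners Ccnb1, Ccnb2 and Ccna2 were fitted at 0.63, 0.46 and 0.34. Nusap1, which bundles spindle microtubules, stood at 197, 299, 146 and 219.7 CPM in controls and at 310.4, 300.4, 218, 356 and 427 CPM in mutants. Again 4 of 5 mutants lay above every control, with a log2 fold change of 0.68 (SE 0.27, adjusted p = 0.999 by edgeR). The condensins Smc2 (0.65, SE 0.27) and Smc4 (0.77, SE 0.32) and the kinetochore motor Cenpe (0.79, SE 0.32) were, with Ccnb1, the other mitosis genes at an unadjusted p under 0.05. In Smc4 this rested on mutants 4 and 5, at 408 and 352 CPM, above control 4 at 254 CPM. Top2a stood at 521 to 625 CPM in ventral controls and at 578, 653, 443, 1133 and 1018 CPM in mutants, with a log2 fold change of 0.49 (SE 0.23), which was 0.91 without control 1. The value of Ccnb1 was 0.36 without mutant 5.

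Other mitosis genes were fitted near 0 or lower in the ventral stalk. Mki67 stood at 334 to 470.3 CPM in controls and at 269 to 456 CPM in mutants, with a log2 fold change of 0.018 (SE 0.22) that turned sign in 7 of the alternatives. The passenger complex, Birc5, Aurkb and Cdca8, had a median of -0.058, and Cenpa and Tpx2 were fitted at -0.20 and -0.12. Among the S-phase genes, Hells stood at 84.4, 135, 69.3 and 156 CPM in controls and at 172, 113, 165, 281 and 180.1 CPM in mutants. Mutant 2 was the exception to a higher level in mutants, and the log2 fold change was 0.89 (SE 0.36, adjusted p = 0.999 by edgeR). Pcna was fitted at 0.43 (SE 0.27), or at 0.25 without control 3 and 0.22 without mutant 5, and Mcm2 at -0.087 (SE 0.32), and Mcm7 was the lowest, at -0.58 (SE 0.37). For Mcm3, with 0.8 CPM in ventral control 3 and 220.2 to 319 CPM in the other controls, the SE of its log2 fold change of 0.43 was 0.97.

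Within batch A the ventral mitosis median was 0.24 (16 of 23 higher) and within batch B it was 0.68 (18 of 23 higher), where the medians over all genes were 0.24 and -0.11. Without control 1 it was 0.67, and without mutant 5 it was 0.26. The S-phase medians were 0.094 and 0.093 in the 2 batches, and without single libraries between -0.12 and 0.38. They were above 0 without control 1 or 4 or without mutant 1, 2, 3 or 4. Of the 39 further mitosis genes 31 were fitted higher, with a median of 0.49, against 46.8% of all genes. By edgeR 0 of them were called, and 9 were higher at an unadjusted p under 0.05, where 1.28% of all genes were. Ect2, which starts cytokinesis (1.20, SE 0.37), and Kif11, the motor that separates the spindle poles (1.30, SE 0.40), had the smallest p-values. For both the adjusted p was 0.999 by edgeR, and 4 of 5 mutants lay above every control. Of the 35 further replication genes 26 were fitted higher, with a median of 0.28. Mesenchyme markers in the ventral pieces summed to 65.4 to 1351 CPM in controls and 53.9 to 201 CPM in mutants, with 11 of 12 lower. Melanin and pigment epithelium markers summed to 241 to 1189 CPM in ventral controls and 667 to 3984 CPM in ventral mutants, with overlap. Their mean log2(CPM + 1) was 2.38 to 3.51 in ventral controls and 3.69 to 4.69 in ventral mutants, without overlap. Of the 10 markers 6 were higher and 2 lower, while Mlana and Rpe65 were at 0 in both groups. Proneural markers summed to 5.11 to 55.0 CPM in controls and 20.1 to 359 CPM in mutants, with 8 of 9 higher. Erythroid markers summed to 275 to 5262 CPM in controls and 2.27 to 1227 CPM in mutants, with 6 of 8 lower. The part of these cell types in the ventral values was not tested.

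In the axon bundle the S-phase genes had no common direction. Of 13 genes 5 were fitted higher, with a median of -0.060, and of 23 mitosis genes 16, with a median of 0.16. Here the median over all 14977 genes tested was -0.29, with 42.3% fitted higher. Calls by edgeR were 0 of the 36 genes and 0% of all genes. At an unadjusted p under 0.05 edgeR gave Top2a higher and Mcm3 lower, where 0.861% of all genes were higher and 2.68% lower at that level. DESeq2 and limma voom called 0 of the 36 genes, and 1238 and 49 of all genes.

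Among the functional groups with 3 or more genes the MCM helicase had the lowest median, -0.67, with 2 of 6 subunits fitted higher. Mcm3 stood at 276, 319.9, 216 and 475 CPM in axon controls and at 118, 321, 237, 99.9 and 141 CPM in axon mutants. Mutants 1, 4 and 5 lay below every control, and the log2 fold change was -1.03 (SE 0.47, adjusted p = 0.880 by edgeR). Mcm2 stood at 306, 142, 98.5 and 165 CPM in controls and at 105, 66.7, 68.5, 125 and 79.5 CPM in mutants. Mutants 2, 3 and 5 lay below every control, with a log2 fold change of -1.03 (SE 0.54, adjusted p = 0.880 by edgeR). Control 1, the highest of the controls in Mcm2, moved this value most, to -0.41 when left out, and it was -1.34 without mutant 4. Mcm7 was fitted at -1.04 (SE 0.55) and at -1.63 without mutant 5, Mcm5 at -0.31, and Mcm4 and Mcm6 at 0.092 and 0.13. Ccne2 stood at 62.5 to 214 CPM in controls and at 0, 7.63, 5.78, 80.1 and 31.3 CPM in mutants. For Pcna the mutants divided by batch, with 271, 312 and 247 CPM in batch A and 646 and 558 CPM in batch B, around controls of 354 to 517 CPM, and the log2 fold change was 0.11 (SE 0.28).

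On the side of mitosis, Top2a stood at 374, 905, 506 and 658 CPM in axon controls and at 848, 573, 571, 1015 and 778 CPM in axon mutants. The groups overlapped widely, with a log2 fold change of 0.55 (SE 0.24, adjusted p = 0.880 by edgeR). Cdk1 was at 124 to 589.7 CPM in controls and 417 to 778 CPM in mutants (log2 fold change 0.70, SE 0.37, and 0.43 without control 3), and Ccnb1 was fitted at 0.61 (SE 0.45). Plk1, the Polo kinase, stood at 97.5 to 178 CPM in controls and at 184, 223, 56.6, 25.7 and 7.45 CPM in mutants. Mutants 1 and 2 were above every control and the other 3 below, and the fitted log2 fold change was -2.0 (SE 1.02, adjusted p = 0.880 by edgeR), or -3.0 without control 1 and -1.12 without mutant 5. Mki67 was fitted at -0.40 (SE 0.63), with 126 to 306 CPM in controls and 54.9 to 249 CPM in mutants.

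Within batch A the medians in the axon bundle were -0.34 for S phase and 0.29 for mitosis, where the median over all genes was 0.78, and within batch B they were -0.15 and 0.27 against -0.44. The S-phase median was -0.58 without mutant 5, and the mitosis median was 0.0072 without control 3 and 0.33 without mutant 5. Of the 35 further replication genes 14 and of the 39 further mitosis genes 18 were fitted higher, with medians of -0.17 and -0.030, beside 42.3% of all genes. Spc24, a kinetochore subunit, was fitted at -0.68 (SE 0.30). Cdc6, which loads the MCM helicase, stood at 32.4 to 122 CPM in axon controls and at 0, 5.58, 68.1, 0 and 0 CPM in axon mutants, so that 4 of the 5 mutants lay below every control. Mesenchyme markers in the axon pieces summed to 404 to 2698 CPM in controls and 644 to 2346 CPM in mutants, with 7 of 12 lower. The axon mutants held 9225 to 11358 detected genes and the axon controls 10076 to 14118, with means of 10146 and 12143. Endothelial markers summed to 3.49 to 164 CPM in controls and 0.0584 to 391 CPM in mutants, with 8 of 8 higher on average. Neurone markers were lower on average in 7 of 10 and astrocyte progenitor markers in 6 of 8 (2140 to 4454 CPM summed in controls, 1780 to 2706 CPM in mutants). The part of these differences in the axon values was not tested.

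**Figure D4:**
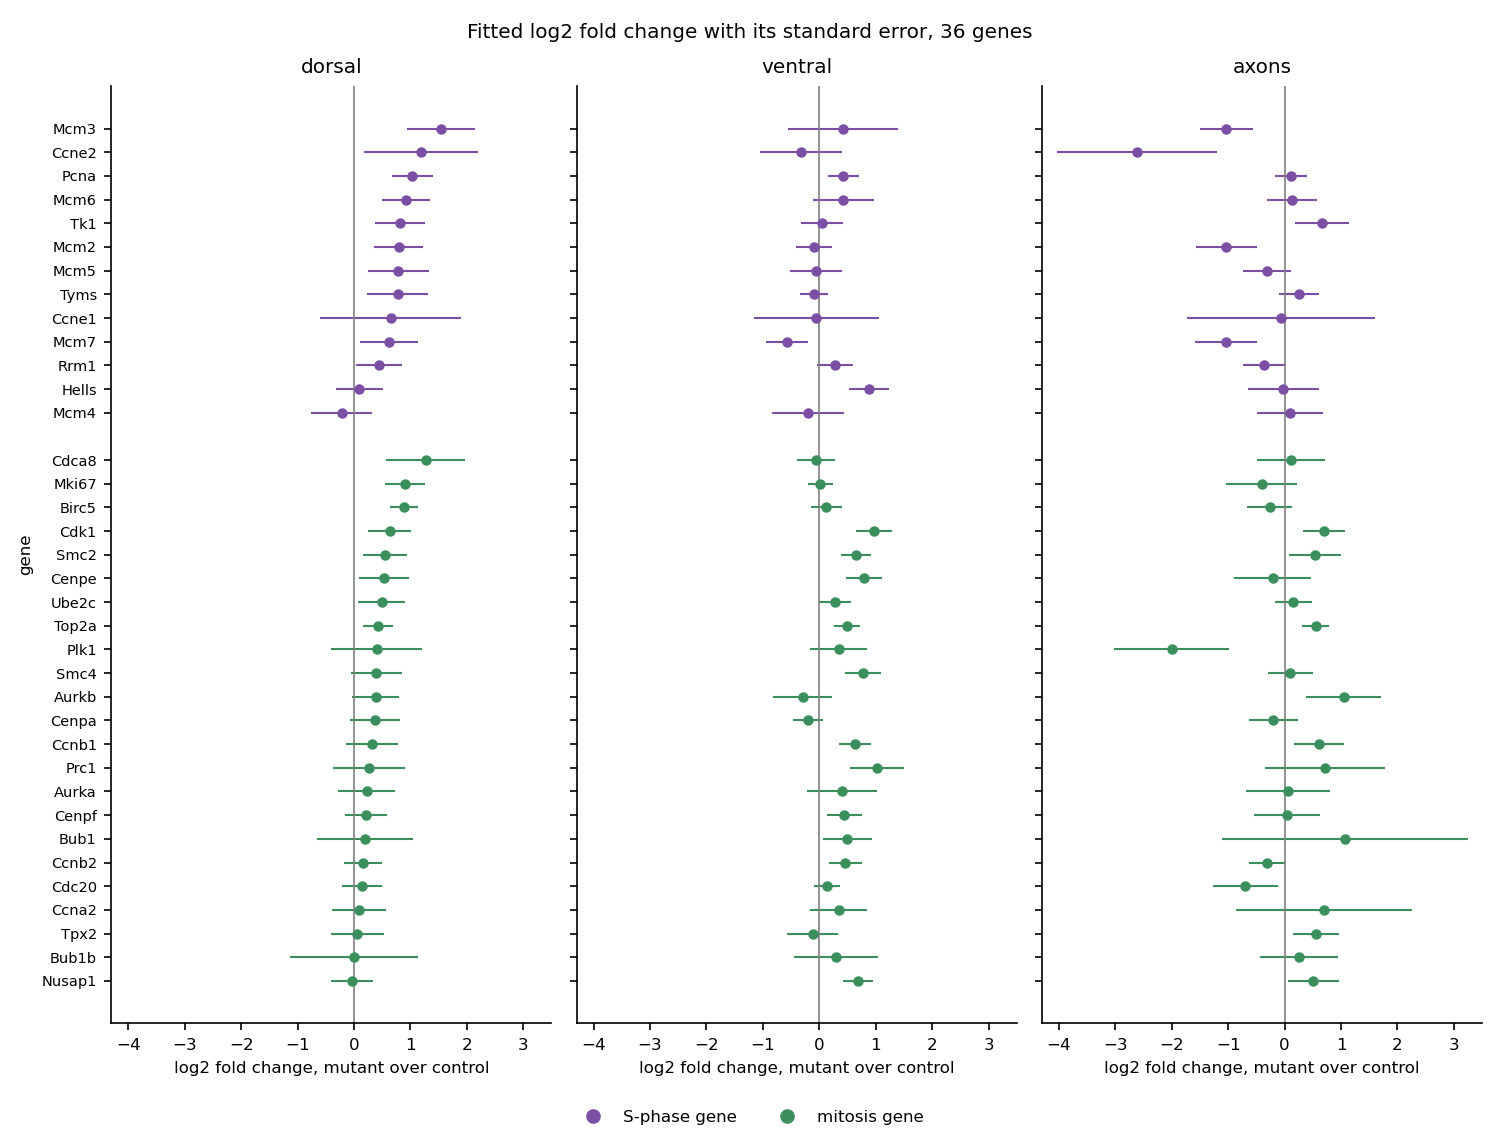
Fitted log2 fold change of mutant over control with its SE for the 36 genes tested, in dorsal stalk, ventral stalk and axon bundle (purple, S phase; green, mitosis; ordered by the dorsal value). In the dorsal panel 33 of 36 points lie above 0, in the ventral panel 25 and in the axon panel 21.

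**Figure D5:**
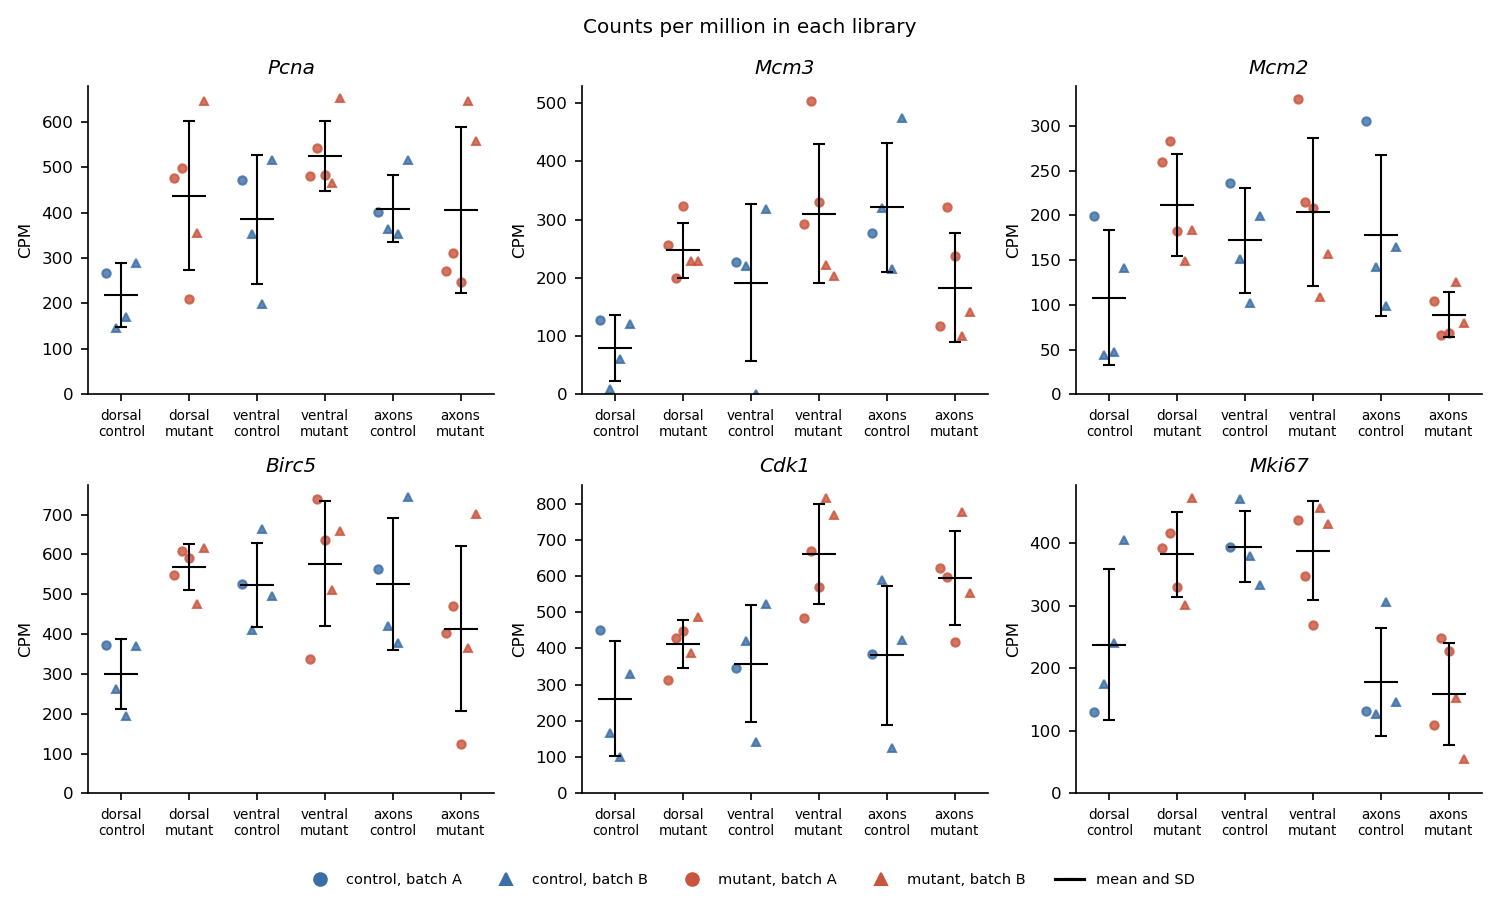
CPM of Pcna, Mcm3, Mcm2, Birc5, Cdk1 and Mki67 in each library of the 6 groups (blue, control; red, mutant; circles, batch A; triangles, batch B), with group mean and SD. Mcm3 and Birc5 do not overlap between dorsal controls and mutants, and Mki67 is low in most axon pieces of either genotype.

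The genotype effects themselves were compared between regions, in 1 model of all 27 libraries with the embryo as a block. Since these comparisons share libraries, their values stand side by side and are not independent. The dorsal effect minus the axon effect was above 0 for all 13 S-phase genes, with a median of 1.09, and for 19 of 23 mitosis genes, with a median of 0.54. The median over all 16330 genes was 0.49, and 60% of them lay above 0. With edgeR 0 of the 36 genes were called, of all genes 0.0122%, and 7 of the 36 had an unadjusted p under 0.05, all above 0, where 3.77% of all genes did. Mcm2 differed by 2.10 (SE 0.52, adjusted p = 0.536 by edgeR), with a fitted value of 0.79 in the dorsal stalk beside -1.03 in the axon bundle. Mcm7 differed by 1.92 (SE 0.56), Birc5 by 1.39 (SE 0.43) and Pcna by 1.09 (SE 0.36). DESeq2 called 4 of the 36 genes here, Mcm2 (2.01, adjusted p = 0.000365), Mcm7 (1.83, adjusted p = 0.00801), Ccne2 (4.13, adjusted p = 0.0158) and Birc5 (1.31, adjusted p = 0.0381), while over the 17 alternatives their adjusted p-values reached 1, and limma voom called 0. Of all 16330 genes DESeq2 called 2102 and limma voom 65. Without dorsal controls 2 and 3 the S-phase median was 1.01 (13 of 13 above 0) and the mitosis median -0.085 (11 of 23 above 0). The mitosis median was 0.22 without control embryo 2 and 0.35 without mutant embryo 2.

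The dorsal effect minus the ventral effect was above 0 for 11 of 13 S-phase genes, with a median of 0.83, and for 12 of 23 mitosis genes, with a median of 0.050. Over all genes 52.7% lay above 0. By edgeR 0 of the 36 genes and 0.00612% of all genes were called, and 2 of the 36 were above 0 at an unadjusted p under 0.05, where 1.28% of all genes were. DESeq2 and limma voom called 0 of the 36 genes, and 793 and 7 of all genes. Mcm7 (1.23, SE 0.55), Cdca8, a passenger complex subunit (1.87, SE 0.87), Birc5 (0.88, SE 0.42) and Tyms, which makes thymidylate (1.15, SE 0.57), had the smallest p-values, with adjusted p-values of 1 by edgeR. Without dorsal controls 2 and 3 the medians were 0.43 and -0.36, and without control embryo 2 alone they were 0.27 and -0.069. The mitosis median was -0.14 without control 3 and -0.068 without mutant 2, and 0.31 without control 1, 0.33 without control 4 and 0.17 without mutant 4. The ventral effect minus the axon effect was above 0 for 10 of 13 S-phase and 18 of 23 mitosis genes, against 58.3% of all genes, with medians of 0.74 and 0.39 beside 0.37 over all genes, with 0 of the 36 genes called by edgeR, DESeq2 or limma voom, 0% of all genes called by edgeR and 2 of the 36 above 0 at an unadjusted p under 0.05, where 2.94% of all genes were. Of all genes DESeq2 called 2088 and limma voom 27 for the ventral minus axon difference. The S-phase median of this difference was 0.42 without control embryo 3 and 0.9952 without mutant embryo 5, and its mitosis median 0.62 without control embryo 3 and 0.23 without mutant embryo 3. There Rrm1, a subunit of ribonucleotide reductase (0.98, SE 0.44), Mcm2 (1.13, SE 0.52), Ccnb2 (0.78, SE 0.42) and Mcm3 (1.89, SE 1.10) had the smallest p-values.

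Regions were also compared within each genotype, with the embryo as a block. In controls the genes were mostly fitted lower in the dorsal stalk. Against the ventral stalk 2 of 13 S-phase genes (median -0.80) and 2 of 23 mitosis genes (median -0.61) were fitted higher in the dorsal stalk, beside 46.2% of all genes. The edgeR test called 0 of the 36 genes and 0% of all genes, and 6 of the 36 were lower at an unadjusted p under 0.05, where 1.32% of all genes were. DESeq2 and limma voom called 0 of the 36 genes, and 623 and 14 of all genes. Birc5, at 194 to 373 CPM in dorsal and 411 to 664 CPM in ventral controls, did not overlap (log2 fold change -0.85, SE 0.28). Neither did Cenpa, the histone of centromeres, at 161 to 319 CPM against 336 to 638 CPM (-1.05, SE 0.30), where 1.39% of all genes were lower without overlap. Cdc20 (-0.82, SE 0.25) and Pcna (-0.80, SE 0.26) were lower in the dorsal piece of all 4 embryos. Dorsal controls also held more mesenchyme marker RNA, 1163 to 11688 CPM summed against 65.4 to 1351 CPM in ventral controls, with 12 of 12 markers higher. All 8 endothelial markers were higher too (220.0 to 415 CPM summed, against 23.7 to 188 CPM). Astrocyte progenitor markers were lower in 7 of 8 (1032 to 1475 CPM, against 1869 to 2194 CPM). Retinal progenitor markers were lower in 5 of 7 and higher in 1 (165 to 391 CPM, against 503 to 697 CPM). Of 10 melanin and pigment epithelium markers 8 were higher, with overlapping sums. The part of these differences in the regional values was not tested. Without embryos 2 and 3 the medians were -0.56 and -0.12, and without embryo 2 alone the S-phase median was -0.15 and the mitosis median -0.39. Without embryo 3 alone the mitosis median was -0.31.

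Against the axon bundle, 0 of 13 S-phase genes were fitted higher and all 13 lower in dorsal controls, with a median of -1.03, and 18 of 23 mitosis genes, with a median of -0.59, while 59.7% of all genes were fitted higher, with a median of 0.48. Adjusted calls by edgeR were 0 of the 36 genes and 0.0126% of all genes, and 10 of the 36 were lower at an unadjusted p under 0.05, where 2.34% of all genes were. DESeq2 called 1 of them, Ccne2 (-2.68, adjusted p = 0.0229, reaching 0.871 over the 12 alternatives), and limma voom called 0. Of all 15899 genes DESeq2 called 1038 and limma voom 150. Pcna stood at 146 to 289 CPM in dorsal and 354 to 517 CPM in axon controls, without overlap, with a log2 fold change of -1.15 (SE 0.25, adjusted p = 0.480 by edgeR). Birc5 stood at 194 to 373 against 378 to 744 CPM, also without overlap (-1.02, SE 0.20, adjusted p = 0.425 by edgeR). Mcm3 and Ccne2 did not overlap either, and 1.5% of all genes were lower without overlap. Mcm5 (-1.39, SE 0.38) and Ube2c (-0.87, SE 0.24) were lower in the dorsal piece of all 4 embryos. Without embryos 2 and 3 the S-phase median was -0.50 (2 of 13 higher) and the mitosis median 0.11 (13 of 23 higher), beside 0.84 over all genes. The mitosis median was -0.97 without embryo 1, -0.27 without embryo 2 and -0.37 without embryo 3. Mesenchyme markers summed to 1163 to 11688 CPM in dorsal and 404 to 2698 CPM in axon controls, with 11 of 12 higher in the dorsal pieces, and all 8 endothelial markers were higher there (220.0 to 415 CPM summed, against 3.49 to 164 CPM). Mitochondrial genes took 4.43 to 5.63% of the counts in dorsal and 8.64 to 15.4% in axon controls. The part of these differences in the regional values was not tested.

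Between ventral stalk and axon bundle of the controls, Mki67 did not overlap. It was at 394, 470.3, 379.7 and 334 CPM in the ventral pieces of embryos 1 to 4 and at 132, 126, 306 and 145 CPM in their axon pieces, with a log2 fold change of 1.06 (SE 0.34, adjusted p = 0.902 by edgeR). Aurkb, the Aurora kinase of the passenger complex, did not overlap either, at 122 to 293 against 47.9 to 115 CPM (0.84, SE 0.38), where 2.69% of all genes were higher without overlap. Smc4 (-0.84, SE 0.31) and Rrm1 (-0.57, SE 0.29) were fitted lower in the ventral stalk. As classes, 1 of 13 S-phase genes (median -0.35) and 8 of 23 mitosis genes (median -0.0996) were fitted higher, beside 63% of all genes, whose median was 0.53. Calls by edgeR numbered 0 of the 36 genes and 0% of all genes, and 1 of the 36 was higher and 1 lower at an unadjusted p under 0.05, where 1.13% of all genes were higher and 1.51% lower. DESeq2 and limma voom called 0 of the 36 genes, and 976 and 44 of all genes. The S-phase median was -0.12 without embryo 3 and -0.58 without embryo 4. Without embryos 1 to 4 in turn the mitosis median was -0.037, 0.20, -0.26 and 0.019. Mitochondrial genes took 3.72 to 7.61% of the counts in ventral and 8.64 to 15.4% in axon controls. The part of this difference in the regional values was not tested.

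In the mutants the dorsal and ventral stalk were near each other in S phase, with 7 of 13 genes fitted higher in the dorsal stalk and a median of 0.072, which was -0.18 without embryo 4 and -0.059 without embryo 5. The mitosis genes were mostly fitted lower in the dorsal stalk, 18 of 23 with a median of -0.48. Over all genes 50.3% were fitted higher. By edgeR 0 of the 36 genes and 0.0371% of all genes were called, and 7 mitosis genes were lower at an unadjusted p under 0.05, where 1.89% of all genes were. The helicase subunit Mcm7 was higher at that level (0.61, SE 0.22), where 2.15% of all genes were higher. Nusap1 stood at 138, 160.4, 140.1, 180.2 and 218 CPM in the dorsal and at 310.4, 300.4, 218, 356 and 427 CPM in the ventral pieces of mutants 1 to 5. Every embryo had less in its dorsal piece, the groups did not overlap, where 0.928% of all genes were lower without overlap, and the log2 fold change was -0.91 (SE 0.18, adjusted p = 0.336 by edgeR). Cdk1, at 314 to 488 CPM in dorsal and 484 to 816 CPM in ventral pieces, was also lower in every dorsal piece (-0.65, SE 0.13, adjusted p = 0.414 by edgeR), as were Ube2c (-0.44, SE 0.13) and Cdc20 (-0.66, SE 0.22). DESeq2 called 2 of the 36 genes, Nusap1 (-0.89, adjusted p = 0.000218) and Cdk1 (-0.63, adjusted p = 0.00449), whose adjusted p-values reached 1 over the 12 alternatives, and limma voom called 0. Of all 16168 genes DESeq2 called 996 and limma voom 39. Summed mesenchyme markers were at 55.6 to 395 CPM in dorsal and 53.9 to 201 CPM in ventral mutants, so their ranges overlapped. Other marker lists differed. All 8 astrocyte progenitor markers were lower in dorsal mutants (402 to 795 CPM summed, against 1368 to 2344 CPM). Of 10 melanin and pigment epithelium markers 9 were higher (3256 to 12687 CPM, against 667 to 3984 CPM), and Rpe65 was at 0 in both. All 9 proneural markers were higher (114 to 922 CPM, against 20.1 to 359 CPM). The part of these differences in the regional values was not tested.

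Against the axon bundle of the mutants, Mki67 was higher in the dorsal piece of all 5 embryos (301 to 472 against 54.9 to 249 CPM, log2 fold change 1.24, SE 0.42) and in the ventral piece of all 5 (269 to 456 CPM, 1.27, SE 0.44), without overlap in either. Mcm2, at 148 to 283 against 66.7 to 125 CPM (1.07, SE 0.43), and Cenpe were also without overlap between dorsal and axon pieces, and Bub1 between ventral and axon pieces. Among all genes 3.12% were higher without overlap in the dorsal and 2.59% in the ventral pieces. Cdk1 (-0.69, SE 0.21) and Top2a (-0.42, SE 0.17) were fitted lower in dorsal than in axon pieces. Cenpa (0.50, SE 0.21), Mcm3 (0.64, SE 0.27) and Mcm6 (0.67, SE 0.31) were fitted higher in ventral than in axon pieces. The medians of the 2 classes, 0.26 and 0.058 for the dorsal and 0.41 and 0.36 for the ventral stalk, lay below those over all genes, 1.42 and 1.46. In the dorsal stalk 9 of 13 S-phase and 12 of 23 mitosis genes were fitted higher, against 71.6% of all genes, and in the ventral stalk 9 of 13 and 18 of 23, against 73.4%. The 36 genes held 0 calls by edgeR in each, with 0.266% and 0.259% of all genes called. DESeq2 and limma voom also called 0 of the 36. In the dorsal comparison DESeq2 called 2881 and limma voom 425 of all 15780 genes. In the ventral comparison they called 2698 and 325 of all 15804 genes. At an unadjusted p under 0.05, 2 of the 36 were higher and 2 lower in the dorsal comparison (6.36% and 1.95% of all genes), and 3 were higher in the ventral comparison (5.03% of all genes). The S-phase median of the ventral stalk was 0.16 without embryo 3, and the S-phase median of the dorsal stalk was 0.17 without embryo 2. The mitosis median of the dorsal stalk was -0.15 and -0.19 without embryo 3 or 5, 0.13, 0.014 and 0.27 without embryo 1, 2 or 4, and -0.18 by limma voom.

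Across all 27 libraries the genes of a class varied together only in part. The median Pearson correlation of log2(CPM + 1) between pairs of S-phase genes was 0.40, with 75 of 78 pairs above 0. It was 0.31 between pairs of mitosis genes, with 234 of 253 above 0, and 0.24 between the classes, with 265 of 299 above 0. As deviations from the group means the medians were 0.38, 0.26 and 0.18. These are descriptions over libraries that share embryos, depth and cell make-up, and no test was made. Read by promoter letters, the 5 S-phase genes with an E2F match were all fitted higher in dorsal mutants, with a median of 0.79. They had medians of 0.43 in the ventral stalk and -0.31 in the axon bundle. The medians of all 13 S-phase genes tested were 0.79, -0.053 and -0.060, and 12 of the 13 were fitted higher in dorsal mutants. Of the 15 mitosis genes with a CHR match 14, 13 and 10 were fitted higher in the 3 regions, with medians of 0.37, 0.40 and 0.11. The medians of all 23 mitosis genes were 0.37, 0.40 and 0.16, close to those of the CHR genes.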

How the data were processed

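Pieces cut by laser capture were amplified with a Smart-Seq2-type protocol without molecular identifiers and sequenced. Per the labels and the study's methods the authors aligned reads with STAR to mm10 and deposited raw counts per gene made with HTSeq; versions, annotation release and strand setting are not given in the sources used here, and Salmon is also named in the submitters' processing notes. Gene identifiers were named, and exon lengths and shared bases taken, from GENCODE release M21; promoter sequences are from RefSeq (GRCm38.p6). The E12 tissue was not analysed here. CPM were computed on library totals, with a pseudocount of 1 for log2 levels, which carry no test.

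Genes that exceeded 10 counts in 3 or more of 27 libraries were tested with edgeR 4.0.16 in R 4.3.3 (TMM scaling, robust quasi-likelihood F-test, two-sided, Benjamini-Hochberg over all genes tested), and called at an adjusted p under 0.05 with an absolute log2 fold change over 0.58. SEs were derived from the fold change and F and are approximate. Genotype effects used the 9 libraries of a region with a batch term. Regional comparisons and differences of genotype effects used the embryo as a block, since its 3 pieces share an animal, although deviations of same-embryo libraries correlated only weakly (median r 0.037 over 27 pairs, 2 of them above 0.1). Alternatives were DESeq2 1.42.0, limma 3.58.1 voom, the newer edgeR method, RLE scaling, no count filter, other covariates, single batches, all 27 libraries and leaving out each library or embryo; 2 alternatives that leave out dorsal libraries were chosen after seeing the data. The genotype fits of edgeR and limma voom were tried on counts simulated from the dorsal libraries, with larger changes than those fitted there for the 36 genes. The fits of regions, of differences of genotype effects and of DESeq2 were not simulated.

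The 37 members and all lists were chosen with earlier results of these data known. Named with values were Mki67, Pcna, Mcm2, Cdk1, Ccnb1 and Top2a in every region, the 6 members with the smallest p in each genotype comparison, the 4 in each other comparison, and the 2 further genes with the smallest p in each genotype comparison; other members are given to account for all.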

Additional observations from a re-analysis of the deposited data

Results flagged for a closer look

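Of 168 groups of library values checked, 8 held a library whose gap to its nearest neighbour was large for the range of its group, where about 5% are set apart in this way by chance. In axon controls, control 3 stood apart with a high Mki67 (306 CPM) and a low Aurkb (47.9 CPM), control 4 with a high Mcm6 (401 CPM) and control 1 with a low Rrm1 (349 CPM). In ventral controls, control 3, which was also low in Mcm3 and Ccne1, had a low Ccnb1 (183 CPM). Among mutants, dorsal mutant 3 had a low Top2a (440.1 CPM), ventral mutant 3 a high Plk1 (311 CPM) and ventral mutant 4 a low S-phase level (6.76 as mean log2(CPM + 1)).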

How the results depend on the processing

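Without an adjusted call by edgeR for any of the 36 genes, the alternatives bear on directions and medians. The calls on members were 0 in every fit that left out a library or embryo and in 94 of 98 other alternatives; the exceptions were DESeq2 with 1 call in the dorsal genotype comparison, 1 between dorsal stalk and axons of controls, 2 between dorsal and ventral stalk of mutants and 4 for the dorsal minus axon difference, and the cause was not tested. Over all genes and the 12 comparisons the main test called 0 to 42 genes, DESeq2 342 to 2881, limma voom 5 to 425, the newer edgeR method 0 to 85, RLE scaling 0 to 41 and no count filter 0 to 101; over 9 comparisons each, all 27 libraries called 0 to 115 and no embryo block 0 to 86, and over 3, no batch term 0 to 8. Median S-phase fold changes (log2) moved in axons to -0.34 in batch A alone and to between -0.58 and -0.0051 without single libraries, and the ventral mitosis median to 0.68 in batch B alone and to between 0.26 and 0.67 without single libraries. With a pseudocount of 5 the S-phase level was 6.79 in axon mutants and 7.28 in ventral mutants. Embryos of the 2 genotypes share only a number, and same-numbered libraries did not deviate together (median r -0.018 over 12 pairs). With that number as a replicate block, the S-phase median was 0.096 in the dorsal stalk and -0.75 in axons, the dorsal mitosis median -0.24 (7 of 23 higher), and Cdk1 (dorsal, -0.14), Ccnb1 (dorsal, -0.24), Pcna (ventral, -0.063) and Pcna (axons, -0.14) turned sign; 0 genes were called.

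Other signs of named genes that turned were, in batch A alone, Cdk1 (dorsal, -0.19), Ccnb1 (dorsal, -0.86), Mki67 (ventral, -0.16), Mcm2 (ventral, 0.094), Top2a (ventral, -0.14), Plk1 (axons, 0.15), Mki67 (axons, 0.53) and Pcna (axons, -0.59), and in batch B alone Ccnb1 (axons, -0.020). Ccnb1 was at -0.29 in the dorsal stalk without dorsal controls 2 and 3. In the ventral stalk Mki67 was at -0.028 by limma voom and -0.026 without a batch term, and Mcm2 at 0.010 with all 27 libraries and 0.26 without a batch term. Without single libraries Mki67 ranged from -0.067 to 0.13 and Mcm2 from -0.21 to 0.082 (ventral), and Mki67 from -0.96 to 0.063, Pcna from -0.044 to 0.54 and Ccnb1 from -0.060 to 0.91 (axons). Of the fold changes of named genes under alternatives other than leaving out 1 library, 547 kept direction and call, 7 passed the adjusted threshold by DESeq2 and 18 turned sign.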
